A study of Mus musculus with 6 samples.

Results

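The proteasome genes were taken as every row of the deposited table whose symbol starts with Psma to Psmg and a digit. This gave 49 of 13185 rows, and all 49 were among the 12554 genes that reached the mean log2 level of at least 0 set for testing. Among them Psmc3ip, which encodes a meiotic recombination cofactor, and the pseudogene Psmb6-ps2 meet the symbol rule without being subunits or assembly factors. Psma8 of the germ line and Psmb11 of thymic epithelium were not analysed here.

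The samples were Notch1 T-ALL cells, a mouse model of T-cell acute lymphoblastic leukaemia, profiled by sequencing the 3' ends of polyadenylated transcripts. In 3 libraries the cells had been given panobinostat, an inhibitor of histone deacetylases, at 25 nM for 2 h, and 3 libraries came from cells left without drug. Both groups were grown with 2.5 ug/mL of antibody to CD3, part of the T cell receptor complex, fixed to the plate and with 100 U/mL of IL-2. Every value below was thus taken in cells exposed to both. No group lacked them, so whether the cells responded to them was not tested. The labels give neither the mouse strain nor its age and leave unsaid how separate the cultures or leukaemias behind a group's libraries were, so p-values measure the spread between these samples only, which may be technical. Levels are log2 CPM (counts per 1000000 reads), differences are treated minus untreated on the log2 scale with the standard error (SE) after ±, and a gene is said to have risen or fallen where limma's Benjamini-Hochberg adjusted p over all tested genes was below 0.05. Library numbers are those of the table's columns.

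The proteasome is the protease that degrades proteins tagged with ubiquitin. Its barrel-shaped core particle is built from outer rings of alpha subunits and inner rings of beta subunits, of which 3 cut peptides, and the regulatory particle that caps it has a base, where ATPases unfold the substrate, and a lid, which removes ubiquitin. Lymphocytes also make inducible beta subunits that replace the catalytic ones and form the immunoproteasome, which produces peptides for presentation on MHC class I. Dedicated chaperones, encoded by the Psmg genes and by Psmd5, Psmd9 and Psmd10, assemble the core and the base.

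Promoter windows of the catalytic subunits are printed because the ratios of inducible to constitutive subunits described below turn on these genes. They run from 250 bases before to 50 bases after the annotated start, 5′ to 3′ on the gene's strand (RefSeq, GRCm38.p6). Capitals mark matches on either strand to TGACNNNGC (a form of the antioxidant response element, which the stress factor NFE2L1 binds upstream of proteasome genes), CCAAT (the NF-Y box) or GAAANNGAA (a short form of the interferon-stimulated response element). No window was matched for Psmb7.
Psmb5, chr14:54617946-54618245, minus strand: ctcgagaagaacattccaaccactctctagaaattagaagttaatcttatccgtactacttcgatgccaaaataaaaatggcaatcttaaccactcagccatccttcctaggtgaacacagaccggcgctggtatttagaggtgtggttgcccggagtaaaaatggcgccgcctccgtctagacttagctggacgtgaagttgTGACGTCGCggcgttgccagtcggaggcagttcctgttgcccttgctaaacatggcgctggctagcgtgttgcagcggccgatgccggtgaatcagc
Psmb8, chr17:34197945-34198244, plus strand: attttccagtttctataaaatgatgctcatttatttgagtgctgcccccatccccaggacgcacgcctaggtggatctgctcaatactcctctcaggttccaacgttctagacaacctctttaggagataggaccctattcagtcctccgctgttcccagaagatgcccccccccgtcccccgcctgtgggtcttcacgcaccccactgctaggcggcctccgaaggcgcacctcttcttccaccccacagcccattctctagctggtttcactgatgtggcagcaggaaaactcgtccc
Psmb6, chr11:70525107-70525406, plus strand: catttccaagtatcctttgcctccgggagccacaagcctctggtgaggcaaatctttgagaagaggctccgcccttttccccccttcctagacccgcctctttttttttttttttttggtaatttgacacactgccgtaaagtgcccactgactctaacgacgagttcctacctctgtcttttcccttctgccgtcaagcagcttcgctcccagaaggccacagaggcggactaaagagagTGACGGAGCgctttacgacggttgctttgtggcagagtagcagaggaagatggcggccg
Psmb9, chr17:34187281-34187580, minus strand: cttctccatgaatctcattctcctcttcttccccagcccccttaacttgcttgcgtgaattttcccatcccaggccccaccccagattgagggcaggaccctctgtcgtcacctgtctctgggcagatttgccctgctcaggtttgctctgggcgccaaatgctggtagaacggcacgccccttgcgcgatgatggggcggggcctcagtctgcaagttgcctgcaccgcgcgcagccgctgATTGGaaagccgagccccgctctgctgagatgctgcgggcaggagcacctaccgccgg
Psmb10, chr8:105938343-105938642, minus strand: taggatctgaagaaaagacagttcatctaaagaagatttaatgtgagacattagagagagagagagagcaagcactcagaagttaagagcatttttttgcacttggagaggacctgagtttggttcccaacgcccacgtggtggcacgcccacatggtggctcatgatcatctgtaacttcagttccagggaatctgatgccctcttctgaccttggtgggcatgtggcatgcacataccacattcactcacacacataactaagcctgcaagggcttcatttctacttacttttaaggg
The constitutive Psmb5 and Psmb6 windows each held 1 TGACNNNGC match, and the Psmb9 window held a CCAAT match on its opposite strand. No match lay in the printed windows of Psmb8 and Psmb10. The Psmb8 and Psmb9 windows lie wholly inside the gene spans of a second annotation (GENCODE M21). That annotation starts these genes further upstream, at 34197721 for Psmb8 and 34187764 for Psmb9. Sequence around those starts was not searched.

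Panobinostat was followed by changes in both directions within the complex, with more rises than falls. Of the 49 genes, 18 (36.7%) rose and 7 (14.3%) fell, while among all tested genes 19.2% rose and 19.0% fell. The share of members that rose was above that background and the share that fell was near it. The median difference was 0.12 over the members and -0.01 over all tested genes. Changes were small: Psmb2 was the only called member that changed by 2-fold or more. Treated libraries all lay above untreated ones in 20 members (40.8%) and all below in 9 (18.4%), against 25.7% and 25.7% of all tested genes, or 51.4% in either direction.

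**Figure D1:**
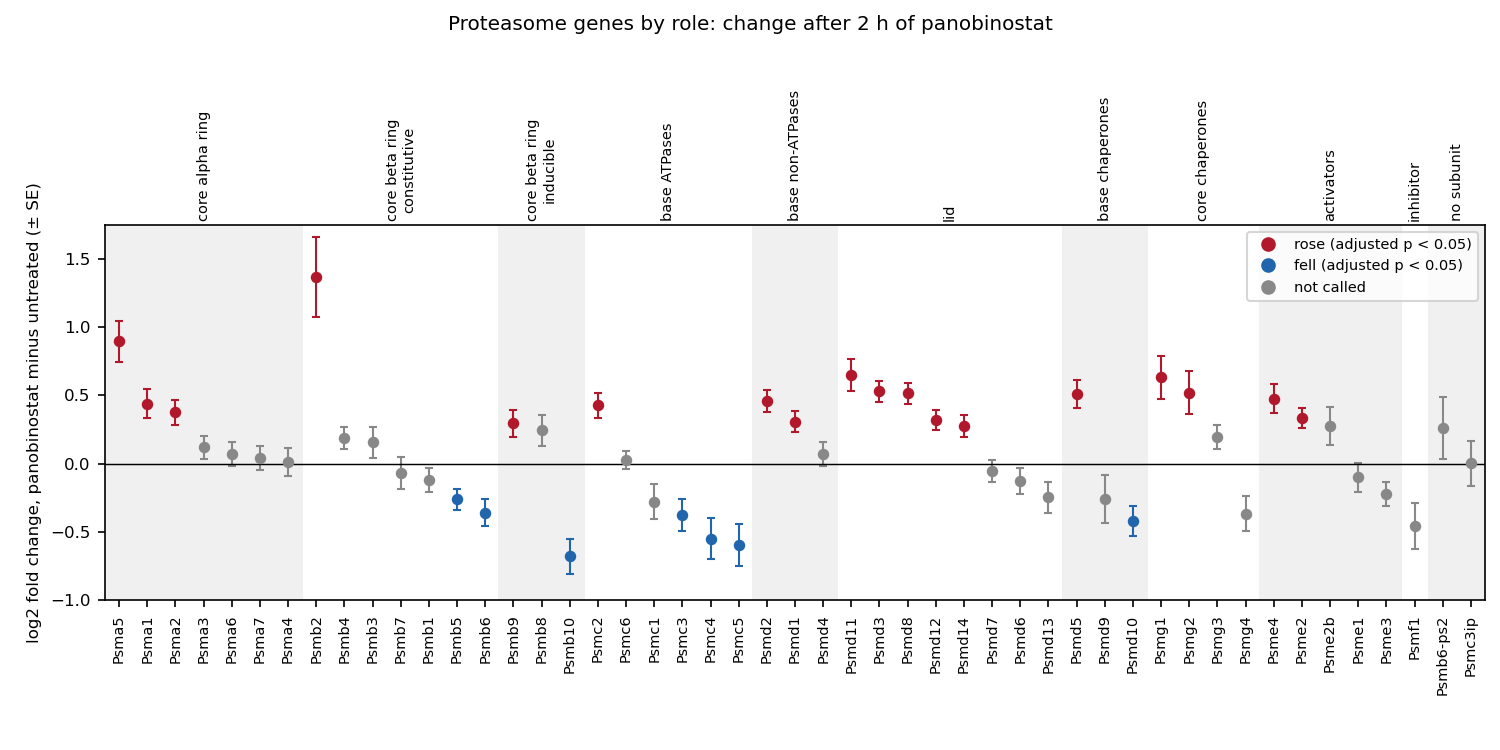
Log2 fold change (panobinostat minus untreated, ± SE) of each of the 49 genes, grouped by role along the horizontal axis and ordered by size within a role. Red points rose, blue points fell and grey points did not pass. Psmb2 stands highest at 1.37, 5 of 8 lid genes are red, and 3 of 6 base ATPase genes are blue. For comparison, 19.2% of all tested genes rose and 19.0% fell.

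How many members passed depended on which libraries were fitted, and more so for falls than for rises. The count of rises ran from 10 without panobinostat library 3 to 20 without untreated library 1. Falls numbered 2 without panobinostat library 1, 4 without library 2 and 1 without library 3 of that group. Leaving out untreated library 1 gave 12 falls, library 2 gave 4 and library 3 gave 1. Counts over all tested genes moved in the same direction as those of the members in each of these fits, for rises and for falls. Each of these fits has fewer samples than the main one, so a shared direction cannot show whether rises of proteasome genes were less stable than others. Falls changed by a larger share among the members than among all tested genes in each fit, though members that fell were few. Untreated library 1 lay nearer the treated libraries on the first principal component of all tested genes (-25.7, against -48.0 and -41.0 for the other untreated and 35.4 to 43.2 for the treated libraries). In 20 of the 25 called members, and in 35 of all 49, it was also the untreated library closest to the treated mean. Calls that held in all 6 of these fits were the rises of Psma5, Psmb2, Psmc2, Psmd2, Psmd3, Psmd5, Psmd8, Psmd11 and Psme4 and the fall of Psmb10.

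**Figure D2:**
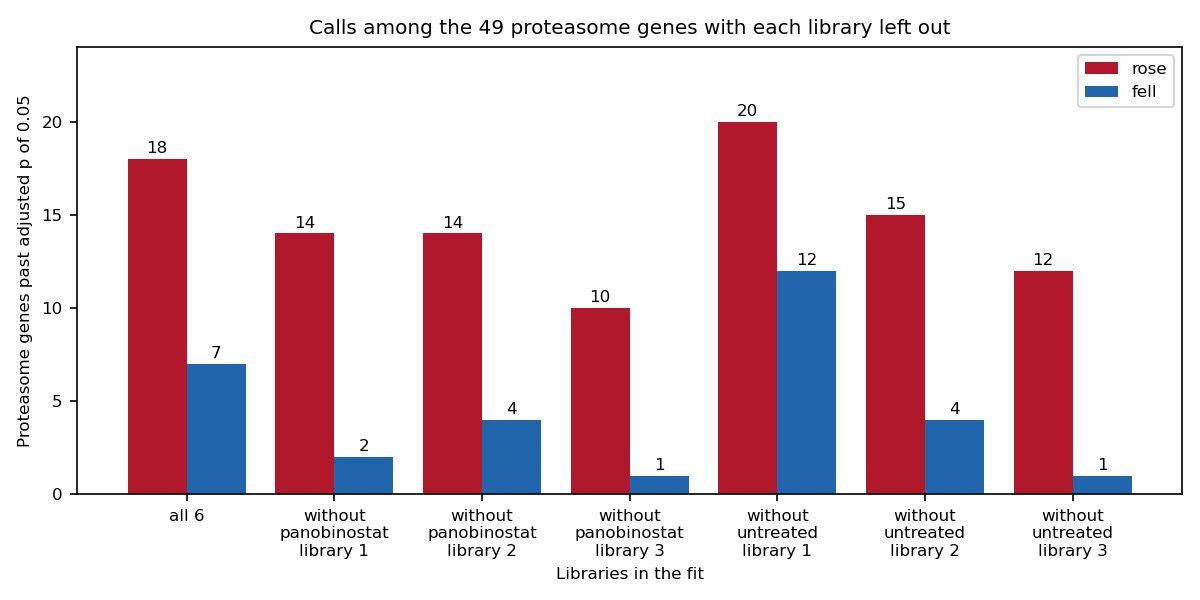
Number of the 49 proteasome genes that rose (red) or fell (blue) in the fit on all 6 libraries and in each fit with 1 library left out. Falls ranged from 1 to 12 and rises from 10 to 20.

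In the alpha ring, which gates entry to the core, 3 of 7 genes (42.9%) rose and 0 fell. The shares over all tested genes were 19.2% and 19.0%. This role and those below hold few genes, so 1 call moves a share by much. Psma5 (chromosome 3, 108256926 to 108279974) moved the most. It stood at 6.15, 6.34 and 6.49 log2 CPM in treated libraries 1 to 3 and at 5.74, 5.26 and 5.28 in untreated libraries 1 to 3, so the lowest treated value lay above the highest untreated one (difference 0.90 ± 0.15, limma adjusted p = 0.00373). Part of the 3' end of Psma5 is near-identical to the genes Gm8394 (97.2% over 283 bases) and Gm12989, and the split of reads among them is uncertain. Psma1 had treated levels of 6.29, 6.30 and 6.54 and untreated levels of 6.02, 6.02 and 5.78 (0.44 ± 0.11). For Psma2 the treated libraries were tightly grouped at 8.94, 8.94 and 8.96 above 8.75, 8.41 and 8.54 in untreated cells (0.38 ± 0.09). Neither gene's groups overlapped. The Psma1 call was lost on leaving out panobinostat library 3 (0.36) or untreated library 3 (0.36), and that of Psma2 on leaving out panobinostat library 3 (0.37) or untreated library 3 (0.36). Psma3, Psma4, Psma6 and Psma7 did not pass, with differences from 0.01 to 0.12.

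Constitutive beta ring genes went different ways: 1 rose (14.3%) and 2 fell (28.6%) of 7, against 19.2% and 19.0% of all tested genes. Psmb2 (chromosome 4, 126677630 to 126709714), a structural subunit without a catalytic site, rose from a low count. Its treated levels were 3.93, 4.17 and 3.79 log2 CPM and its untreated levels 3.28, 2.13 and 2.36, the untreated library 1 lying well above the other two (1.37 ± 0.29, limma adjusted p = 0.0089). By the depth estimated for each library these levels stood for 92, 122 and 105 reads in treated and 75, 30 and 34 reads in untreated libraries. The call held with each library left out, with differences from 1.14 to 1.71. Psmb5, which carries the chymotrypsin-like activity that bortezomib blocks, fell: 8.40, 8.50 and 8.33 in treated and 8.59, 8.75 and 8.68 in untreated libraries (-0.26 ± 0.08). Psmb6, the caspase-like subunit, fell from 8.32, 8.62 and 8.51 to 7.99, 8.25 and 8.12 (-0.36 ± 0.10). Both falls were small, with no overlap between the groups, and neither was stable. The Psmb5 call was lost on leaving out panobinostat library 1 (-0.26), panobinostat library 3 (-0.22), untreated library 2 (-0.22) or untreated library 3 (-0.26), and the Psmb6 call on leaving out panobinostat library 1 (-0.29), panobinostat library 3 (-0.36), untreated library 2 (-0.29) or untreated library 3 (-0.35). Psmb7, the trypsin-like subunit, was at 6.37, 6.35 and 6.29 in treated and 6.32, 6.65 and 6.23 in untreated libraries and did not pass (-0.07 ± 0.12). Psmb1, Psmb3 and Psmb4 did not pass either (-0.12, 0.16 and 0.19), although the groups did not overlap for Psmb4. Part of the 3' end of Psmb5 is near-identical to Gm3375 (99.6% over 227 bases) and to Psmb5-ps. The 3' end of Psmb7 lies inside Nek6 on the opposite strand and shares 255 bases with it. For both genes the split of reads is uncertain.

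The inducible catalytic subunits of the immunoproteasome did not move together. Psmb10 (chromosome 8, 105935735 to 105938444), the inducible counterpart of Psmb7, fell. It was at 5.64, 5.61 and 5.59 log2 CPM in treated and 6.08, 6.59 and 6.23 in untreated libraries, with treated values that spanned 0.05 and lay below all untreated ones (-0.68 ± 0.13, limma adjusted p = 0.00594). Psmb9, the counterpart of Psmb6, rose slightly from 6.13, 5.95 and 5.90 to 6.20, 6.26 and 6.41 (0.30 ± 0.10, limma adjusted p = 0.0456). That call was kept in 1 of the 6 fits with a library left out and was lost on leaving out panobinostat library 1 (0.34), panobinostat library 2 (0.31), panobinostat library 3 (0.24), untreated library 2 (0.27) or untreated library 3 (0.25). Psmb8, the counterpart of Psmb5, stood at 6.22, 6.15 and 6.28 in treated and 6.13, 6.04 and 5.75 in untreated libraries. Its groups did not overlap, but it did not pass (0.24 ± 0.11, limma adjusted p = 0.122), except on leaving out untreated library 1 (0.32). Psmb9 and Psmb8 lie 9.96 kb apart in the MHC region of chromosome 17, with Tap1 between them, while Psmb10 is on chromosome 8.

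Because each inducible subunit takes the place of 1 constitutive subunit, their log2 ratio was taken within each library. Such a ratio does not depend on a single scaling factor per library. The quantile normalization inferred for these values is not a single factor, so it need not cancel between genes at different levels. The ratio of Psmb8 to Psmb5 was -2.18, -2.35 and -2.05 in treated and -2.46, -2.71 and -2.93 in untreated libraries 1 to 3, a difference of 0.51 towards the inducible form. For Psmb9 to Psmb6 the ratios were -1.79, -2.00 and -1.71 in treated and -2.19, -2.67 and -2.61 in untreated libraries (difference 0.66). Psmb10 to Psmb7 went the other way, at -0.72, -0.74 and -0.69 in treated and -0.24, -0.07 and -0.01 in untreated libraries (difference -0.61). None of the 3 ratios overlapped between the groups. The uncertain split of reads for Psmb5 and Psmb7 carries over to the ratios that hold them. The 3' ends of Psmb8 and Psmb10 also lie inside or within 500 bases of a gene on the opposite strand (Gm20496 and Gm16156). Reads of those pairs may not be told apart either. The part of such mixing in these differences was not tested. With 3 libraries against 3 the two-sided exact permutation test cannot go below 0.1, and each ratio gave p = 0.1 (0.1 after Benjamini-Hochberg adjustment over the 3 ratios), so no ratio could pass. When the ratios were added as rows to the limma fit of all genes, all passed, with adjusted p of 0.0188, 0.00874 and 0.00194. That fit draws each variance towards a trend set by single genes, whereas a ratio holds the noise of both its genes. These p-values may therefore be too small.

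**Figure D3:**
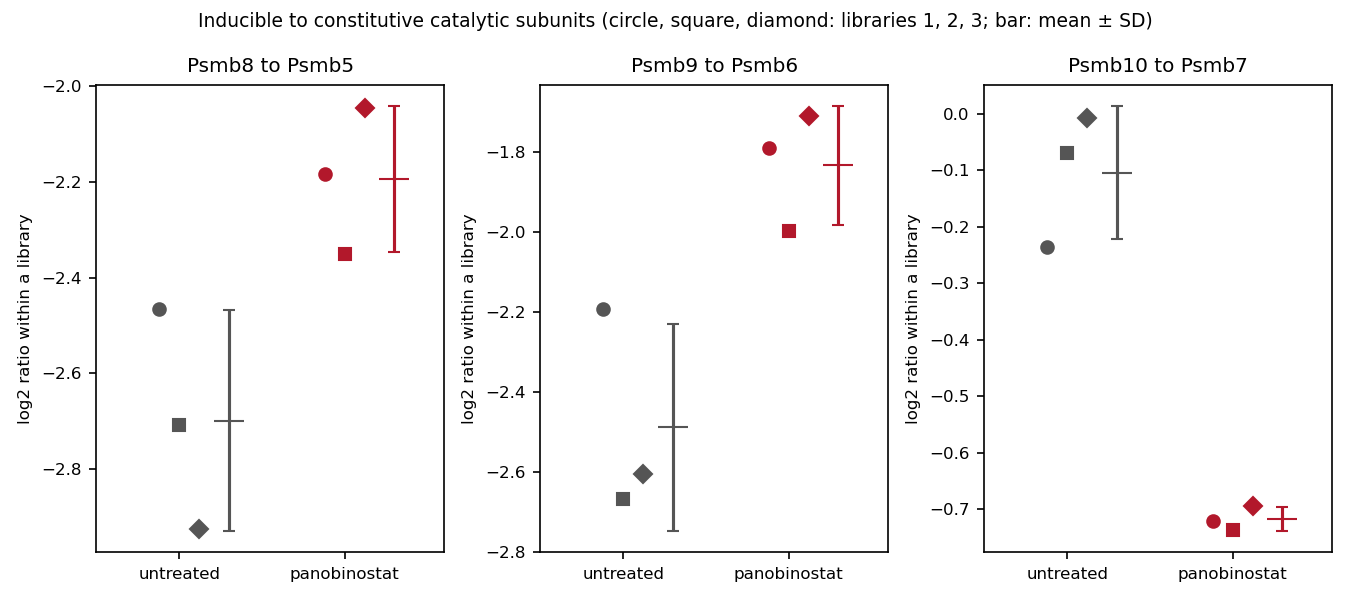
Log2 ratio of each inducible catalytic subunit to its constitutive counterpart in every library, untreated in grey and panobinostat in red, with the group mean ± SD as a bar. Each panel has its own vertical axis. Treated ratios lie above untreated ones for Psmb8 to Psmb5 and Psmb9 to Psmb6 and below them for Psmb10 to Psmb7.

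Markers of other blood cells were present in these libraries and also differed between the groups. Summed over 5 myeloid markers (Lyz2, Itgam, Csf1r, S100a8 and S100a9) the level was 1012 to 1106 CPM in treated and 1238 to 1399 CPM in untreated libraries. Of these 3 (60.0%) fell and 0 rose. For 5 erythroid markers the ranges touched, at 6282 to 6683 CPM against 6666 to 7921 CPM, with 3 falls (60.0%) and 1 rise (20.0%). All 9 T cell markers were measured, at 1173 to 1200 CPM against 1452 to 1563 CPM. They gave 3 falls (33.3%: Cd3e, Cd3d and Lck) and 1 rise (11.1%: Notch1). The shares over all tested genes were 19.0% for falls and 19.2% for rises, and the marker lists are short. Of the dendritic and thymic epithelial markers only Itgax was tested, and it did not pass. In such bulk samples, fewer cells of a type and less RNA per cell cannot be told apart. The part of these cells in the fall of Psmb10 or in any other proteasome result was not tested.

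Base ATPase genes, which encode the hexameric motor of the regulatory particle, held 3 of the 4 falls outside the core: 1 rose and 3 fell of 6. Psmc5 was at 6.35, 6.27 and 6.13 log2 CPM in treated and 6.56, 7.18 and 6.81 in untreated libraries (-0.60 ± 0.15, limma adjusted p = 0.0182). Treated levels of Psmc4 were 5.29, 5.34 and 5.43, below 5.55, 6.09 and 6.06 in untreated cells (-0.55 ± 0.15). The third, Psmc3, went from 8.99, 9.41 and 9.03 to 8.70, 8.85 and 8.75 (-0.38 ± 0.12). In all of them untreated library 2 was the highest and library 1 the lowest of the untreated values, and the groups did not overlap. Each call was lost in at least 3 of the 6 fits: Psmc5 on leaving out panobinostat library 2 (-0.61), panobinostat library 3 (-0.54) or untreated library 3 (-0.62), Psmc4 on leaving out panobinostat library 1 (-0.52), panobinostat library 2 (-0.54), panobinostat library 3 (-0.59), untreated library 2 (-0.45) or untreated library 3 (-0.47), and Psmc3 on leaving out panobinostat library 1 (-0.34), panobinostat library 2 (-0.42), panobinostat library 3 (-0.36) or untreated library 3 (-0.43). Psmc2 rose, with treated levels of 5.93, 5.73 and 5.84 and untreated levels of 5.41, 5.46 and 5.34 (0.43 ± 0.09), and kept its call in every one of these fits. Psmc1 did not pass on all libraries (-0.28 ± 0.13) but did on leaving out untreated library 1 (-0.40). Psmc6 was nearly equal in both groups, at 7.51, 7.51 and 7.42 and 7.48, 7.43 and 7.46.

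The scaffold and ubiquitin-receptor subunits of the base gave 2 rises (66.7%) and 0 falls of 3, against 19.2% and 19.0% of all tested genes. Psmd2, the large scaffold that docks ubiquitin shuttles, rose from 7.96, 7.74 and 7.96 log2 CPM in untreated to 8.36, 8.34 and 8.34 in treated libraries (0.46 ± 0.08, limma adjusted p = 0.00418). Its 3' end is 97.4% identical to Gm5422 over 268 bases. Psmd1, the other large scaffold, had treated levels of 6.80, 6.77 and 6.68 and untreated levels of 6.49, 6.43 and 6.41 (0.31 ± 0.08), a call lost on leaving out panobinostat library 1 (0.28), panobinostat library 2 (0.30) or untreated library 3 (0.29). Part of the 3' end of Psmd1 is 100.0% identical to Gm21972 over 231 bases, a gene on the same strand that overlaps it. For Psmd1 and Psmd2 the split of reads is uncertain. The treated values of Psmd1 spanned 0.12 and those of Psmd2 0.03, and neither gene's groups overlapped. The ubiquitin receptor gene Psmd4 overlapped between the groups (0.07 ± 0.09).

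Lid genes rose or did not pass: 5 rose (62.5%) and 0 fell of 8, against 19.2% and 19.0% of all tested genes. Psmd11, a lid scaffold linked to proteasome assembly (chromosome 11, 80428615 to 80473248), was at 8.28, 8.38 and 8.44 log2 CPM in treated and 7.98, 7.56 and 7.62 in untreated libraries (0.65 ± 0.12, limma adjusted p = 0.0046). Psmd3 stood at 8.99, 8.87 and 8.97 in treated cells and 8.52, 8.30 and 8.42 in untreated ones (0.53 ± 0.08, limma adjusted p = 0.00226). In Psmd8 the corresponding values were 8.33, 8.47 and 8.40 and 7.93, 7.79 and 7.94 (0.51 ± 0.08, limma adjusted p = 0.00214). These 3 calls held with each library left out, and the gap between the groups was 0.30 in Psmd11, 0.35 in Psmd3 and 0.39 in Psmd8. Psmd12 showed little spread, with 6.35, 6.32 and 6.37 in treated and 6.03, 6.05 and 5.99 in untreated libraries (0.32 ± 0.07), and lost its call on leaving out panobinostat library 3 (0.31). Psmd14, the deubiquitinase of the lid, changed least of the 5, from 5.82, 5.77 and 5.82 to 5.98, 6.11 and 6.15 (0.28 ± 0.08), and its call was lost on leaving out panobinostat library 2 (0.26), panobinostat library 3 (0.24), untreated library 2 (0.26) or untreated library 3 (0.28). Psmd6, Psmd7 and Psmd13 had differences of -0.13, -0.05 and -0.25 and did not pass on all libraries, and Psmd13 passed as a fall on leaving out untreated library 1 (-0.36).

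**Figure D4:**
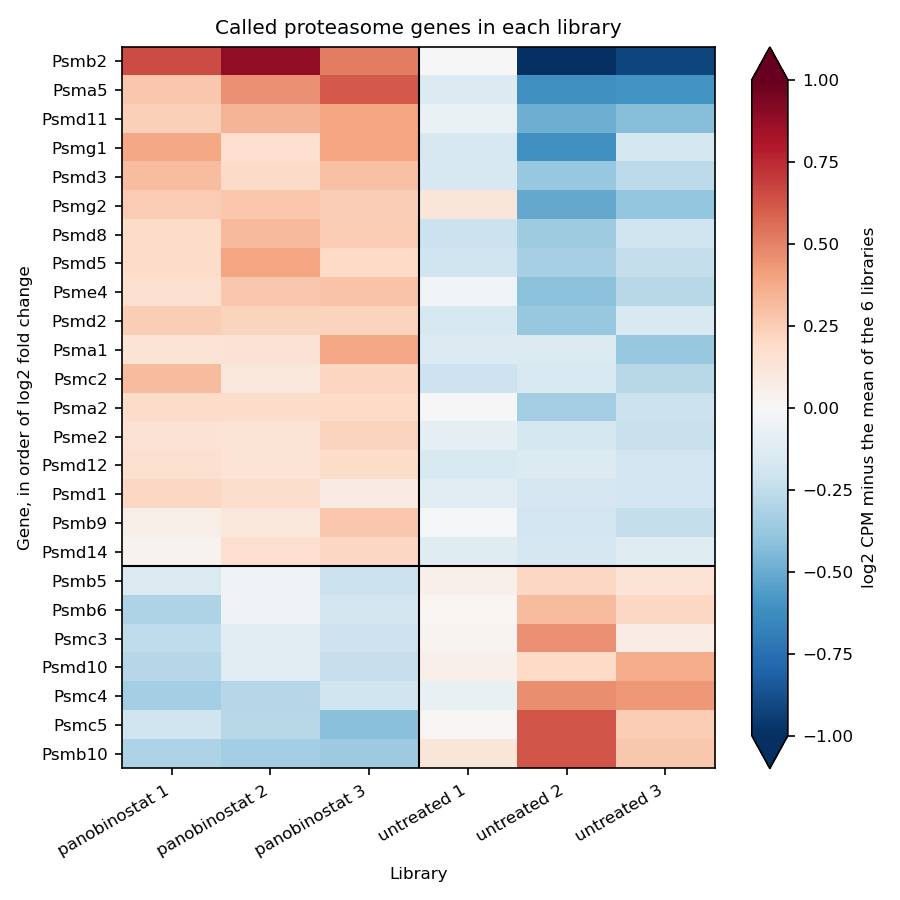
Level of each of the 25 called genes in each library, as log2 CPM minus the gene's mean over the 6 libraries. Red is above and blue below that mean, and the scale is limited to 1 on either side. Rows above the line rose and rows below it fell, and untreated library 1 is paler than the other untreated libraries in most rows.

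Calls among assembly factors went both ways for the base chaperones and only upward for the core chaperones. Of the base chaperones 1 rose (33.3%) and 1 fell (33.3%) of 3, against 19.2% and 19.0% of all tested genes. Psmd5 rose from 4.92, 4.80 and 4.89 to 5.30, 5.52 and 5.32 log2 CPM (0.51 ± 0.10, limma adjusted p = 0.00675). Psmd10, which encodes the oncoprotein gankyrin, fell from 5.51, 5.66 and 5.83 to 5.18, 5.34 and 5.23 (-0.42 ± 0.11), a call lost on leaving out panobinostat library 1 (-0.38), panobinostat library 3 (-0.41) or untreated library 3 (-0.34). The groups did not overlap for either gene, whereas the treated and untreated values of Psmd9 did (-0.26 ± 0.18). Of the core chaperones 2 rose and 0 fell of 4. Psmg1 had 4.39, 4.18 and 4.41 in treated and 3.85, 3.40 and 3.84 in untreated libraries (0.63 ± 0.16), and its partner Psmg2 had 6.18, 6.20 and 6.17 and 6.04, 5.41 and 5.53 (0.52 ± 0.16). Their products form a heterodimer that starts the alpha ring. Psmg1 lost its call on leaving out panobinostat library 1 (0.60) or panobinostat library 3 (0.59), and Psmg2 on leaving out panobinostat library 1 (0.52), panobinostat library 2 (0.51), panobinostat library 3 (0.53), untreated library 2 (0.40) or untreated library 3 (0.46). Psmg3 and Psmg4, which form the other dimer, did not pass and differed in sign (0.19 ± 0.09 and -0.37 ± 0.13). With an adjusted p of 0.0541 (limma), Psmg4 was the gene just outside the threshold, at 4.18, 4.33 and 4.42 in treated and 4.52, 4.66 and 4.85 in untreated libraries. Without untreated library 1 Psmg3 passed as a rise (0.27) and Psmg4 as a fall (-0.44).

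Among the alternative caps and regulators of the core 2 of 5 activator genes (40.0%) rose and 0 fell, against 19.2% and 19.0% of all tested genes. Psme4, the large single-chain nuclear activator, was at 7.38, 7.49 and 7.50 log2 CPM in treated and 7.19, 6.81 and 6.94 in untreated libraries (0.48 ± 0.11, limma adjusted p = 0.011). Psme2, the beta subunit of the interferon-inducible activator, rose from 6.43, 6.36 and 6.31 to 6.68, 6.67 and 6.75 (0.33 ± 0.08), a call lost on leaving out panobinostat library 3 (0.31). Its alpha subunit partner Psme1, which lies 5.91 kb away on chromosome 14, had overlapping groups (-0.10 ± 0.11). Psme2 and Psme2b are 99.0% identical over the last 300 bases, so reads may be split between them, and Psme2b did not pass (0.28 ± 0.14). The nuclear activator gene Psme3 did not pass (-0.22 ± 0.09) although its groups did not overlap, and passed as a fall on leaving out untreated library 1 (-0.28). Psmf1, which encodes a core inhibitor, was at 4.67, 4.43 and 4.36 in treated and 4.66, 5.25 and 4.92 in untreated libraries (-0.46 ± 0.17, limma adjusted p = 0.0658) and passed on leaving out untreated library 1 (-0.60). The rows that are no subunits, Psmc3ip and Psmb6-ps2, did not pass (0.00 ± 0.16 and 0.26 ± 0.23).

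Summed levels of the complex overlapped between the groups. Over the 14 constitutive core genes it was 3279 to 3344 CPM in treated and 3136 to 3316 CPM in untreated libraries, and over the 17 regulatory particle genes 4363 to 4413 against 3988 to 4590 CPM. The 3 inducible genes together gave 197 to 211 CPM in treated and 188 to 224 CPM in untreated libraries. All of these ranges overlapped, with ratios of the group means of 1.03, 1.02 and 0.98. Levels varied more between untreated than between treated libraries: the median SD over the 49 genes was 0.15 log2 in untreated and 0.09 in treated libraries, and the untreated SD was the larger in 37 of 49 members, against 61.4% of all tested genes.

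Several features that the symbol rule did not use were compared between members that rose and those that fell, as descriptions without a test. The median GC content of the last 500 transcript bases was 46.0% in the 18 that rose, 53.2% in the 7 that fell and 44.6% over all tested genes. Genes that rose spanned a median of 20.8 kb and those that fell 7.0 kb, with 18.5 kb over all tested genes. Across the 49 members the log2 fold change correlated with this GC content at r = -0.15 and with gene span at r = 0.21, and across all tested genes at r = -0.05 and r = -0.01. Members share the libraries and are not independent, and the part of these features in the calls was not tested. In promoter windows, available for 41 members, TGACNNNGC was found in 6 (14.6%), against 17.0% of the tested genes with a window. CCAAT was found in 14 (34.1%, against 43.5%) and GAAANNGAA in 7 (17.1%, against 8.89%). By direction, TGACNNNGC was held by 2 of 15 members that rose (Psmd12 and Psme4) and 2 of 6 that fell (Psmb5 and Psmb6), and GAAANNGAA by Psmc2, which rose, and by 6 members that were not called (Psmb3, Psmb4, Psmd4, Psmd9, Psme1 and Psmg4). These counts are too small to read an order from.

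Counting could also mix genes. For 11 members the last 300 transcript bases matched another annotated gene at 95% identity or more over at least 100 bases, and these gave 4 rises and 2 falls, against 14 rises and 5 falls in the other 38. For 10 members the 3' end lay inside or within 500 bases of another gene, on the opposite strand for 7 of them, including Psmb7, Psmb8, Psmb10 and Psmc3. The strand setting of the counting was not given in the sources used here, so reads of such pairs may not be told apart.

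Genes of the pathway that have no Psm symbol were counted for comparison. Of 18 tested partners of the proteasome 3 (16.7%) rose and 3 (16.7%) fell, near the 19.2% and 19.0% of all tested genes. Sem1, the smallest lid subunit, was at 8.06, 8.11 and 8.37 log2 CPM in treated and 7.62, 6.51 and 6.95 in untreated libraries (1.16 ± 0.25, limma adjusted p = 0.00924). Ubqln1 (0.46 ± 0.08) and Rad23b (0.23 ± 0.07), which carry ubiquitinated substrates to the base, rose as well. Those that fell were Fbxo7 (-1.08 ± 0.12), whose product binds the inhibitor encoded by Psmf1, the shuttle gene Ubqln4 (-0.58 ± 0.11) and the ubiquitin receptor gene Adrm1 (-0.49 ± 0.12). Pomp, the chaperone of beta ring assembly, did not pass (-0.07 ± 0.11). The Rad23b call was lost on leaving out panobinostat library 1 (0.24), panobinostat library 3 (0.19) or untreated library 3 (0.22) and that of Adrm1 on leaving out panobinostat library 3 (-0.41), untreated library 2 (-0.44) or untreated library 3 (-0.42), and the other 4 held with each library left out.

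In the list of genes that control proteasome transcription 2 rose (15.4%) and 3 fell (23.1%) of 13 tested. Among all tested genes 19.2% rose and 19.0% fell. Nfe2l1, the main activator of proteasome genes when the protease is blocked, was at 5.14, 5.22 and 5.40 log2 CPM in treated and 5.06, 4.93 and 4.80 in untreated libraries. Its groups did not overlap, but it did not pass (0.32 ± 0.12, limma adjusted p = 0.0607). Ddi2, the protease that activates its product, rose (0.31 ± 0.09). Syvn1, a ubiquitin ligase of the endoplasmic reticulum, rose from 2.97, 2.45 and 2.26 to 4.48, 5.02 and 5.09 (2.30 ± 0.24, limma adjusted p = 0.000612). Keap1, the repressor of the related factor NFE2L2, fell from 7.45, 7.80 and 7.65 to 6.28, 6.63 and 6.37 (-1.21 ± 0.12, limma adjusted p = 0.000604). Falls were also called for the NF-Y subunit genes Nfyc (-1.69 ± 0.13) and Nfyb (-1.05 ± 0.10), while Nfya did not pass (-0.39 ± 0.20). The Ddi2 call was lost on leaving out panobinostat library 1 (0.26), panobinostat library 2 (0.30), untreated library 2 (0.28) or untreated library 3 (0.28), Nfe2l1 passed on leaving out untreated library 1 (0.39), and the other 4 calls held with each library left out.

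Ubiquitin and unfoldase genes are described by their rises only, without a count over the list. Rps27a, which encodes ubiquitin fused to a ribosomal protein, rose (0.59 ± 0.16). The ubiquitin-activating enzyme gene Uba6 (0.65 ± 0.13) and Ubxn7, an adaptor of the VCP unfoldase (0.67 ± 0.16), rose. Of 12 antigen processing genes 3 (25.0%) rose and 3 (25.0%) fell, against 19.2% and 19.0% of all tested genes. Tap1 shares its upstream region with Psmb9 and did not pass, at 6.14, 6.18 and 6.09 log2 CPM in treated and 6.17, 6.02 and 6.09 in untreated libraries (0.04 ± 0.08). The other chain of the peptide transporter, Tap2, rose from 3.53, 2.97 and 3.03 to 3.82, 4.32 and 4.33 (0.98 ± 0.21, limma adjusted p = 0.00901). Rises were also called for the chaperone genes Calr (0.33 ± 0.08) and Pdia3 (0.31 ± 0.09). Tapbp (-0.46 ± 0.12) and Tapbpl (-1.55 ± 0.12), which load and edit peptides on MHC class I, fell, as did the transcription factor gene Irf2 (-0.53 ± 0.11). The calls of Uba6, Tap2, Tapbpl and Irf2 held with each library left out. The Rps27a call was lost on leaving out panobinostat library 2 (0.52), panobinostat library 3 (0.56), untreated library 2 (0.54) or untreated library 3 (0.48). Ubxn7 lost its call on leaving out panobinostat library 3 (0.55) and Calr on leaving out panobinostat library 1 (0.29) or panobinostat library 2 (0.33). Pdia3 lost it on leaving out panobinostat library 1 (0.28), panobinostat library 3 (0.27), untreated library 2 (0.25) or untreated library 3 (0.33), and Tapbp on leaving out panobinostat library 2 (-0.44), panobinostat library 3 (-0.47) or untreated library 3 (-0.37).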

How the data were processed

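Libraries were prepared with a 3' mRNA kit from 100 ng of RNA, per the labels' protocols. Build mm10 and the tools cutadapt 1.9, HISAT2 2.1.0, featureCounts of Subread 1.5.0 and limma are named in the submitters' processing notes. The sources used here give no annotation, strand setting or filter. A single table deposited by the authors holds log2 values for 13185 rows; that they are quantile normalized log2 CPM was inferred from their sums (994114 to 994182 CPM) and shared quantiles (within 0.05 log2 of the common mean in every library for 87.6% of rows). Depth, estimated from steps between tied low values, was 6.01 to 7.59 reads per CPM in treated and 6.60 to 7.74 in untreated libraries.

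Here 631 rows with a mean log2 below 0 were left out, and limma 3.58.1 (R 4.3.3; lmFit, eBayes with trend, no pseudocount) was fitted to the rest. Log2 ratios were tested by exact permutation over libraries (scipy 1.17.1). In data simulated for 12554 genes of this comparison, 41 of 100 genes changed by 1 and 4 of 100 changed by 0.5 (log2) were called, with 1 call among 12354 unchanged genes; with fewer changed genes than in the real data, adjustment there is stricter. Positions came from GENCODE M21, promoters from RefSeq, and near copies from blastn 2.17.0. All proteasome genes could be named; from the other lists, chiefly those past the threshold. Members and lists were chosen with earlier results of these data known. Results of a few genes, and counts and sums over the lists that hold them, are not reported here.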

Additional observations from a re-analysis of the deposited data

How the results depend on the processing

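No result was past its threshold in one direction and reversed by an alternative. Without a filter, with trimmed mean scaling, median centring or a pseudocount of 1 the same 18 rises and 7 falls were called among the 49 genes. Rescaling could change little here, because the values were inferred to be quantile normalized already. The median difference over all tested genes shifted by 0.00027 log2 with trimmed mean scaling and by -0.00068 with median centring. Without a mean-variance trend 14 rose and 3 fell, with array weights 20 rose and 12 fell, with robust moderation 18 and 9, with a filter at a mean of 2 (48 genes left) 18 and 8, and at a threshold of 0.01 8 and 1. With 1 library left out, rises ranged from 10 to 20 and falls from 1 to 12. In these fits the ratio differences ranged from 0.39 to 0.62 for Psmb8 to Psmb5, from 0.57 to 0.80 for Psmb9 to Psmb6 and from -0.68 to -0.57 for Psmb10 to Psmb7. With limma they were 0.51, 0.66 and -0.61 and passed, under the limit on the variance of ratios given above. Why the counts moved was not tested; fits on 5 libraries have fewer samples. Replicate numbers come from the column names, and same-numbered libraries did not deviate together (correlations of -0.04, 0.10 and -0.01). With the replicate block 16 rose and 7 fell, and Psmb9 and Psmd14 were lost.

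Differences near 0 changed sign, none of them past the threshold. With 1 library left out, Psma4 ranged from -0.062 to 0.088, Psma7 from -0.017 to 0.13, Psmb7 from -0.15 to 0.059, Psmc3ip from -0.15 to 0.092 and Pomp from -0.16 to 0.049. With array weights Psmb7 was 0.011, Psmc3ip -0.097 and Pomp 0.014. Depth limits Psmb2 and Psmb6-ps2 most, with as few as 30 and 18 reads in a library; the labels name no molecular identifiers, so several reads may be copies of 1 molecule.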
